A study of Bos taurus with 3 samples.

Results

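The miR-26 family was examined in small RNA libraries of large dense-core vesicles that had been isolated from chromaffin cells of cattle. Chromaffin cells of the adrenal medulla secrete adrenaline and noradrenaline, which they hold, together with peptides, in these vesicles until release. The members were chosen by name: every row of the deposited count table whose mature miRNA is called miR-26a, miR-26b or miR-26c. This gave 3 of the 793 mature miRNAs, on 4 of 919 rows, because miR-26a is listed on 2 hairpins. The study held 3 libraries from cows of a local slaughterhouse, with no treatment named: 1 labelled a biological replicate and 2 labelled technical replicates. Neither the step that the technical replicates repeat nor the number of animals per preparation is given in the labels. The technical libraries were therefore averaged to stand for 1 preparation, and each mean and standard deviation (SD) is over n = 2 preparations. Whole cells were not analysed here, so a value gives the level in a vesicle preparation and no enrichment over the cell.

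A miRNA is a short RNA that guides Argonaute proteins to messenger RNAs, mainly by pairing through its seed near the 5′ end, and lowers the output of those messages. miR-26a and miR-26b share their seed and are abundant in many tissues. In mammals their hairpins lie in introns of the CTDSP genes, which encode small phosphatases of the C-terminal domain of RNA polymerase II and of other substrates. miR-26a is known to repress EZH2, the methyltransferase of Polycomb complexes, and miR-26b is known in zebrafish to repress its own host gene ctdsp2 during neural differentiation.

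All 4 hairpins were found by name in RefSeq's gene table (assembly ARS-UCD2.0, which is not the build of the deposited tables, so no coordinates are given). mir-26a-1 (MIR26A-1) lies within CTDSPL, mir-26a-2 (MIR26A-2) within CTDSP2 and mir-26b (MIR26B) within CTDSP1. mir-26c (MIR26C) occupies exactly the same interval as mir-26a-1, and the table gives no strand. CTDSPL also contains MIR2367. Its products were near the limit of detection, with 2 counts of miR-2367-5p in the biological replicate and 2 and 7 in technical replicates 1 and 2, and 1 count of miR-2367-3p in the biological replicate and 2 and 1 in the technical replicates.

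miR-26a was by far the main form of the family and among the most abundant miRNAs of the vesicle preparations. miR-26a (MIMAT0003516) had 151863 counts in the biological replicate, and 128001 and 161418 counts in technical replicates 1 and 2. Expressed as CPM, that is, relative to each library's total over all miRNAs, these were 22637 CPM in the biological replicate (exact Clopper-Pearson 95% interval 22524 to 22750), 23077 CPM in technical replicate 1 (22952 to 23202) and 25820 CPM in technical replicate 2 (25696 to 25945). Technical replicate 2 was thus the highest library, and the biological replicate lay 1.91% below technical replicate 1. The mean was 2.35% ± 0.128 of all miRNA counts (SD, n = 2). The labels name no molecular identifiers, so these intervals describe the error of counting reads and nothing else.

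miR-26b (MIMAT0003531) stood about an order of magnitude lower and followed the same order of libraries. It had 14625 counts in the biological replicate and 12670 and 15783 counts in technical replicates 1 and 2. These were 2180 CPM in the biological replicate (2145 to 2216), 2284 CPM in technical replicate 1 (2245 to 2324) and 2525 CPM in technical replicate 2 (2485 to 2564). Its mean was 0.229% ± 0.0159 of all counts (SD, n = 2). The 3 intervals did not overlap for miR-26b, nor did they for miR-26a, so on this scale the libraries differed by more than counting error; for miR-26b this did not hold under every scaling.

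miR-26c (MIMAT0016938) was at the limit of detection. It had 0 counts in the biological replicate, 1 count in technical replicate 1 and 0 counts in technical replicate 2. A count of 0 was taken to leave room for an expected count of up to 3. This limit is 0.447 CPM in the biological replicate and 0.541 and 0.480 CPM in technical replicates 1 and 2. Technical replicate 1 had 1 count and not 0, and the exact Clopper-Pearson upper limit there was 1.004 CPM. At this depth (6708654 counts in the biological replicate, 5546771 and 6251664 in technical replicates 1 and 2) miR-26c was therefore not detectable above the limit of a count of 0, while miR-26a, whose hairpin mir-26a-1 is annotated at the same place, had at least 128001 counts in each library.

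**Figure D1:**
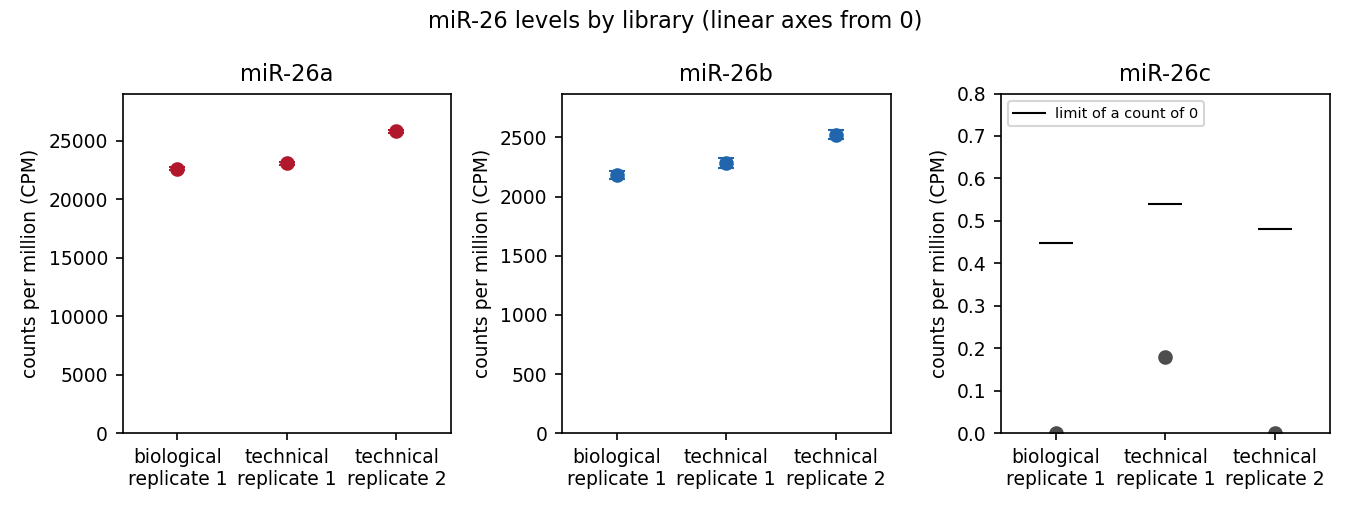
Level of miR-26a, miR-26b and miR-26c in each library, in CPM on linear axes that start at 0 and differ between panels; bars for miR-26a and miR-26b are exact 95% intervals of counting error, and horizontal ticks for miR-26c mark the limit set by a count of 0. miR-26a and miR-26b were lowest in the biological replicate and highest in technical replicate 2, at 25820 and 2525 CPM, and miR-26c did not pass 1 count.

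The ratio of miR-26a to miR-26b lay in a narrow range. There were 10.4 counts of miR-26a for each of miR-26b in the biological replicate, and 10.1 and 10.2 in technical replicates 1 and 2. As a share of the counts of both, miR-26a held 91.2% in the biological replicate (91.08 to 91.35%), 91.0% in technical replicate 1 (90.84 to 91.14%) and 91.1% in technical replicate 2 (90.96 to 91.23%). The largest difference was 0.222 percentage points, between the biological replicate and technical replicate 1, with p = 0.031 in a two-sided Fisher's exact test on the reads and 0.093 after Benjamini-Hochberg adjustment over 3 pairs of libraries. The other pairs had adjusted p-values of 0.31 and 0.33 in the same exact test, which compares these libraries and not the preparations. This split does not depend on how libraries are scaled. The mature sequences of miR-26a and miR-26b are known to be closely alike, and how the counting assigned reads that could match both was not tested. Differences in level between miRNAs also carry the unequal efficiency of adapter ligation, which was not tested.

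The ratio of the leading pair moved more in the 3 families set beside it, let-7, miR-30 and miR-29. Over the 3 libraries the highest ratio of miR-26a to miR-26b was 2.78% above the lowest. For let-7i over let-7g this range was 16.5%, with ratios of 1.69 in the biological replicate and 1.45 and 1.51 in technical replicates 1 and 2. let-7g, at a mean of 6478 CPM, was second by a narrow lead over let-7f at 6398 CPM, and the range depends on that choice. For miR-29a over miR-29c it was 40.3%, and for miR-30d over miR-30a-5p 82.3%, with ratios of 7.16 in the biological replicate and 4.27 and 3.93 in the technical replicates. These ranges are a description of 3 libraries, and the difference between families was not tested. The range of this ratio was not taken for pairs of further families. On another measure, the log2 fold change between preparations in the edgeR fit described below, small and similar values were not particular to miR-26. They were -0.083 for miR-23a and -0.053 for miR-23b-3p, and 0.086 for miR-125b and 0.105 for miR-125a.

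The rows of miR-26a on mir-26a-1 and mir-26a-2 were all but identical, so the contribution of the hairpins could not be told apart. The row of mir-26a-1 had 151848 counts in the biological replicate and 127977 and 161400 in technical replicates 1 and 2. The row of mir-26a-2 was higher by 15 counts in the biological replicate and by 24 and 18 counts in the technical replicates, at most 0.0187% of its counts. Of the 50 miRNAs with several hairpins and at least 100 counts, 33 had rows within 5% of each other, and 12 had a smaller gap than miR-26a. The row of mir-26a-2 was used for miR-26a here, and the rows were not added. Were they added, miR-26a would take 3.57% of the counts and 95.4% of the counts of both members.

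In the order of mean CPM miR-26a was at place 8 of 793 and miR-26b at place 44. In single libraries miR-26a stood at place 7 in the biological replicate, and at places 8 and 7 in technical replicates 1 and 2. The miRNAs just above miR-26a were miR-125b, miR-101 and miR-27b, and those just below were miR-10b, miR-30d and miR-504. Its mean of 23543 ± 1281 CPM was not separable from the 24741 ± 113 CPM of miR-27b, since the order changed between libraries: miR-27b was higher in the biological replicate (24662 CPM) and in technical replicate 1 (24644 CPM) and lower in technical replicate 2 (24998 CPM). miR-101 averaged 26374 ± 10219 CPM, and it was below miR-26a in the biological replicate, at 19149 CPM, and above it in the technical replicates, at 33691 and 33509 CPM. miR-10b and miR-30d, at 20355 ± 756 and 19573 ± 707 CPM, were below miR-26a in every library. miR-125b, at 35734 ± 1658 CPM, was above it and miR-504, at 18701 ± 1638 CPM, below it in every library (all SD, n = 2).

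miR-26b, at 2292 ± 159 CPM, lay between miR-107, miR-92a and miR-154c above it and miR-132, miR-191 and let-7c below it. The means of miR-107 (2387 ± 97.7 CPM), miR-92a (2373 ± 326 CPM) and miR-154c (2305 ± 55.1 CPM) were within the SD of miR-26b, so these places have no firm order. miR-191 and let-7c, at 1658 ± 70.2 and 1642 ± 16.6 CPM, were below miR-26b in every library. miR-132, known for its induction by neuronal activity, had 1118 CPM in the biological replicate and 2643 and 2829 CPM in technical replicates 1 and 2, so it was below miR-26b in the biological replicate and above it in both technical replicates (all SD, n = 2).

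**Figure D2:**
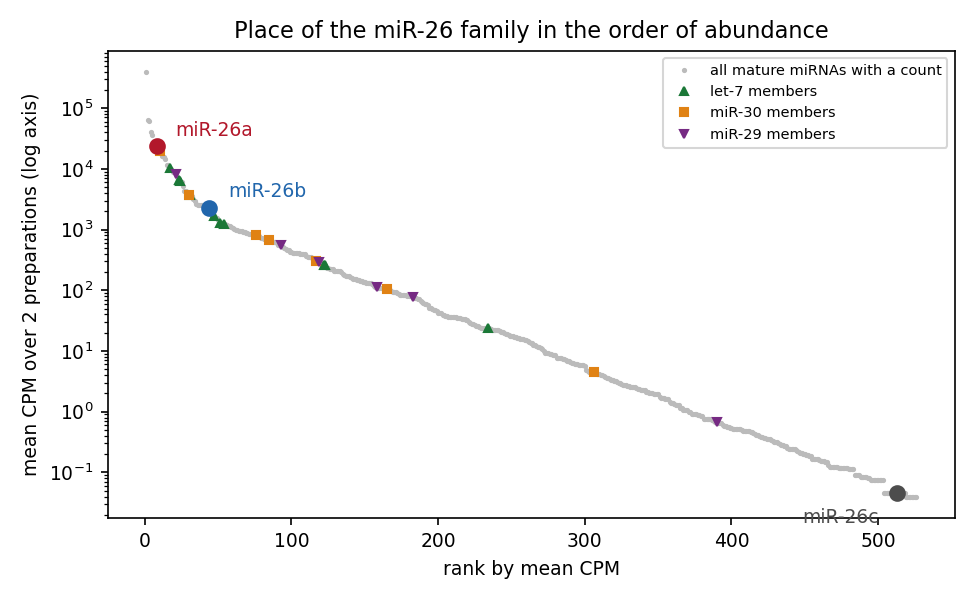
Mean CPM over 2 preparations (log axis) of every mature miRNA with a count, against its rank; the miR-26 members are labelled and members of let-7, miR-30 and miR-29 are marked. miR-26a is at place 8 and miR-26b at place 44, while miR-26c lies at the bottom of the curve.

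In CPM over library totals, technical replicate 1 was nearer to the biological replicate than to technical replicate 2 in both members, which TMM scaling turned round for miR-26a (9.54% above technical replicate 1 in the biological replicate, 8.52% in technical replicate 2). Technical replicate 2 was 11.9% above technical replicate 1 for miR-26a and 10.5% above it for miR-26b, while the biological replicate was 1.91% below technical replicate 1 for miR-26a and 4.56% below it for miR-26b. Against technical replicate 2 the biological replicate fell by 12.3% for miR-26a and fell by 13.6% for miR-26b, so on this scale technical replicate 2 stood apart from both other libraries. Among the 167 miRNAs that averaged 100 CPM or more, the log2 ratio between the technical replicates, taken on log2(CPM + 1), was 0.16 for miR-26a and 0.14 for miR-26b. These exceeded in size the ratios of 130 and 123 of the 167, whose median size was 0.091. For the biological replicate over the technical mean, the log2 ratios of -0.11 for miR-26a and -0.14 for miR-26b exceeded in size those of 44 and 49 of the 167, whose median size was 0.22. With sign, the median of the 167 was 0.035 for technical replicate 2 over technical replicate 1. For the biological replicate over the technical mean it was -0.094, so much of the members' difference on this scale was shared by other miRNAs. In size the members thus lay in the upper part of the spread within the technical pair and below the middle of the spread between preparations.

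The order of the libraries depended on the scaling. miR-375, which took the largest share of all counts, had 2794731 counts in the biological replicate and 2115519 and 2238589 in technical replicates 1 and 2, and its share moves the CPM of every other miRNA. With its counts left out of the totals (a setting added once the values had been seen), miR-26a held 3.88% of the counts in the biological replicate, and 3.73% and 4.02% in technical replicates 1 and 2. With TMM scaling, which sets libraries level on the bulk of miRNAs, miR-26a stood at 24614 CPM in the biological replicate and at 22471 and 24386 CPM in technical replicates 1 and 2, and miR-26b stood at 2370 CPM in the biological replicate and at 2224 and 2384 CPM in the technical replicates. Technical replicate 1 was then the lowest library for both members, and technical replicate 2 was above it by 8.52% for miR-26a and by 7.20% for miR-26b. For miR-26b the biological replicate and technical replicate 2 then differed by -0.587% (95% interval of counting error -2.80 to 1.67%), and without miR-375 the biological replicate and technical replicate 1 differed by 1.20% (-1.18 to 3.63%), both within counting error. For miR-26a the intervals of all 3 pairs of libraries excluded 0 under each of the 3 scalings.

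miR-26b was among the miRNAs whose pattern over the libraries was most like that of miR-26a. Likeness was measured as the distance between log2(CPM + 1) values centred on each miRNA's own mean, over 3 libraries and all miRNAs that averaged 100 CPM or more. miR-26b was at place 3 of 166 with a distance of 0.0280, against a median distance of 0.243. The 5 nearest miRNAs outside the family were miR-10a (0.0119), miR-655 (0.0279), miR-149-5p (0.0329), miR-16b (0.0386) and miR-532 (0.0478). miR-10a, a miRNA encoded in the HOX gene clusters, had 868 CPM in the biological replicate and 892 and 986 CPM in technical replicates 1 and 2. All 5 were highest in technical replicate 2, and 4 of them were lowest in the biological replicate, the exception being miR-149-5p. Since 3 values from shared libraries define each pattern, likeness of this kind is a description only.

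**Figure D3:**
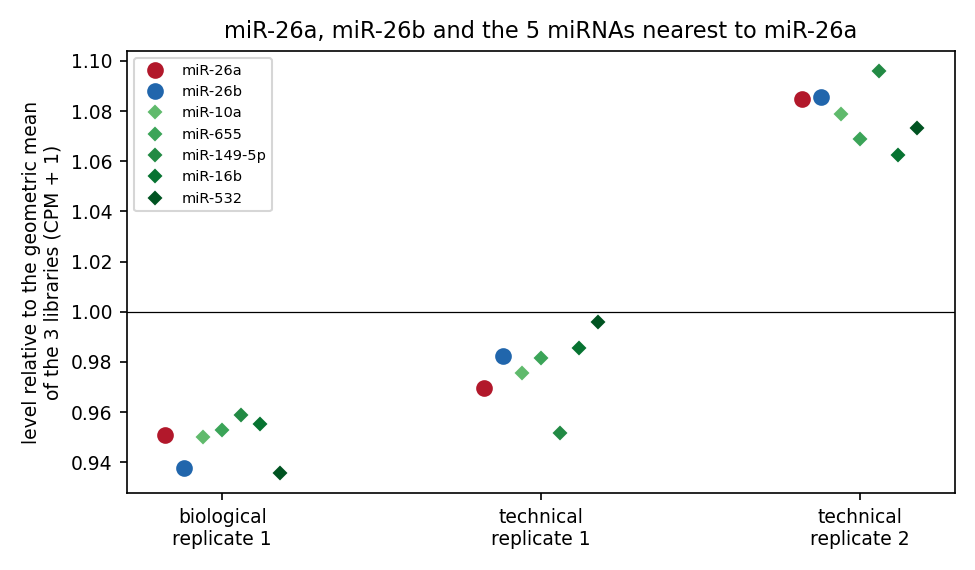
Level in each library relative to the geometric mean over the 3 libraries (CPM + 1), for miR-26a, miR-26b and the 5 miRNAs nearest to miR-26a; points are offset sideways for legibility. miR-26a stood at 0.951 in the biological replicate and at 0.969 and 1.08 in technical replicates 1 and 2, and miR-26b at 0.938 in the biological replicate and at 0.982 and 1.09 in the technical replicates.

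Neither miR-26a nor miR-26b passed the test between preparations. The counts of the biological replicate were compared with those of the technical pair by edgeR's quasi-likelihood test with TMM scaling, over the 367 miRNAs that reached 10 counts in at least 1 library. The log2 fold change of miR-26a was 0.071 ± 0.13 (SE), with an adjusted p of 0.74 (edgeR, Benjamini-Hochberg). That of miR-26b was 0.041 ± 0.096 (SE), with an adjusted p of 0.80 (edgeR, Benjamini-Hochberg). Approximate 95% intervals from these errors ran from 0.882-fold to 1.25-fold for miR-26a and from 0.903-fold to 1.17-fold for miR-26b, so changes of this size cannot be told from none. The fit pooled its spread over all miRNAs tested, and the intervals took 367 degrees of freedom. They therefore do not rest on the technical spread of each member alone and may be too narrow. miR-26c was under the count minimum and was not tested.

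Of the 2 members tested 0 were called, against 37.9% of all miRNAs tested (139 of 367), 17.7% higher and 20.2% lower in the biological replicate. Neither member was called by DESeq2 (adjusted p of 0.73 and 0.89), which called 23.4% of all miRNAs, and the unadjusted p in edgeR was 0.58 for miR-26a and 0.67 for miR-26b. Of the 367 miRNAs, 49 had a smaller log2 fold change in size than miR-26a and 30 a smaller one than miR-26b, and the median size was 0.28. The sign of both was negative with library totals, at -0.11 and -0.14, and when the fit was limited to miRNAs of 100 CPM or more, at -0.077 and -0.11. The fit has 1 residual degree of freedom, that of the technical pair, so its p-values hold for these libraries and say nothing of the spread between animals.

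**Figure D4:**
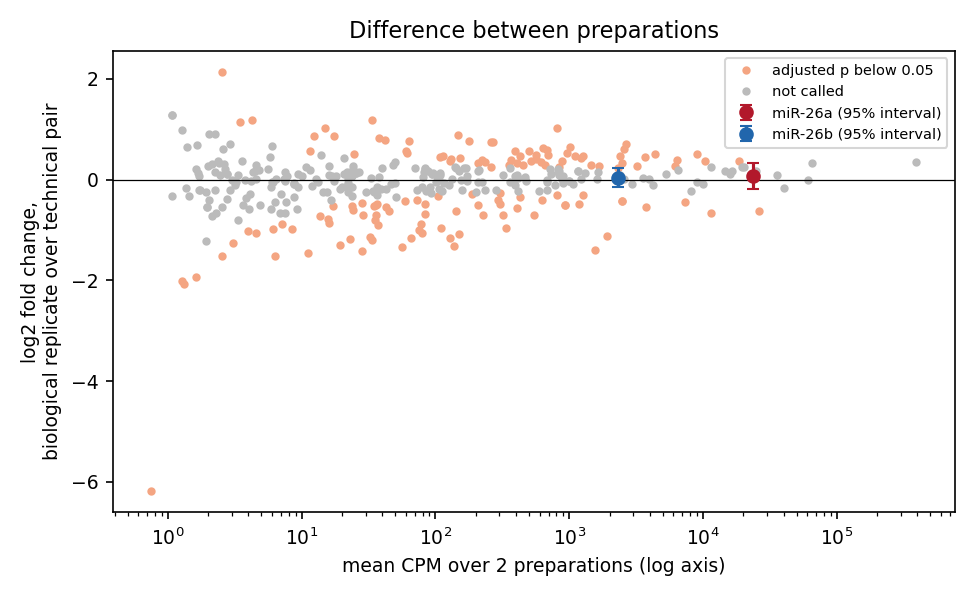
Log2 fold change of the biological replicate over the technical pair (edgeR, TMM) against mean CPM (log axis) for the 367 miRNAs tested, with approximate 95% intervals for miR-26a and miR-26b. Both intervals include 0, at log2 fold changes of 0.071 and 0.041.

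Some members of let-7, miR-30 and miR-29 differed between the preparations while miR-26a and miR-26b did not pass. Small differences were not particular to miR-26. The log2 fold changes of miR-148a, miR-148b and miR-152 were 0.0063, -0.018 and 0.012. Those of miR-23a and miR-23b-3p were -0.083 and -0.053. In the let-7 list, let-7 miRNAs with miR-98, known for their role in differentiation, 6 of 10 members tested were higher in the biological replicate and 0 lower (17.7% and 20.2% of all 367 miRNAs), with a median log2 fold change of 0.32 against 0.013 over all 367 miRNAs. With library totals 1 of the 10 was called higher, against 6.54% of all miRNAs. In the miR-30 list 4 of 7 were lower and 0 higher, with a median of -0.30. In the miR-29 list, miRNAs known to repress collagens, 3 of 5 were lower and 0 higher, with a median of -0.41, beside the same 20.2% of all miRNAs lower. Opposite arms were among the members counted: let-7a-3p, miR-30b-3p and miR-29d-5p, with log2 fold changes of 0.077, 0.18 and -0.22. The difference between these families and miR-26 was not tested. The miR-26 family held 2.48% of the counts in the biological replicate and 2.54% and 2.83% in technical replicates 1 and 2, a mean of 2.58% ± 0.144, against 3.16% ± 0.231 for let-7, 2.52% ± 0.0978 for miR-30 and 0.920% ± 0.200 for miR-29 (SD, n = 2).

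Among other miRNAs known to repress EZH2, miR-101 fell by 0.63 ± 0.14 (SE) on the log2 scale in the biological replicate, with an adjusted p of 3.2e-05 (edgeR quasi-likelihood test). miR-138 had a log2 fold change of 0.27 ± 0.21 (SE) and did not pass (edgeR, adjusted p = 0.35). miR-138 was scarce, at 16.5 CPM in the biological replicate and 13.9 and 17.1 CPM in technical replicates 1 and 2. The let-7 miRNAs were left out of this list, which held miR-101 and miR-138 only. Of miR-26a, miR-101 and miR-138, miR-26a was thus the most abundant in the biological replicate and stood below miR-101 in the technical pair.

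**Figure D5:**
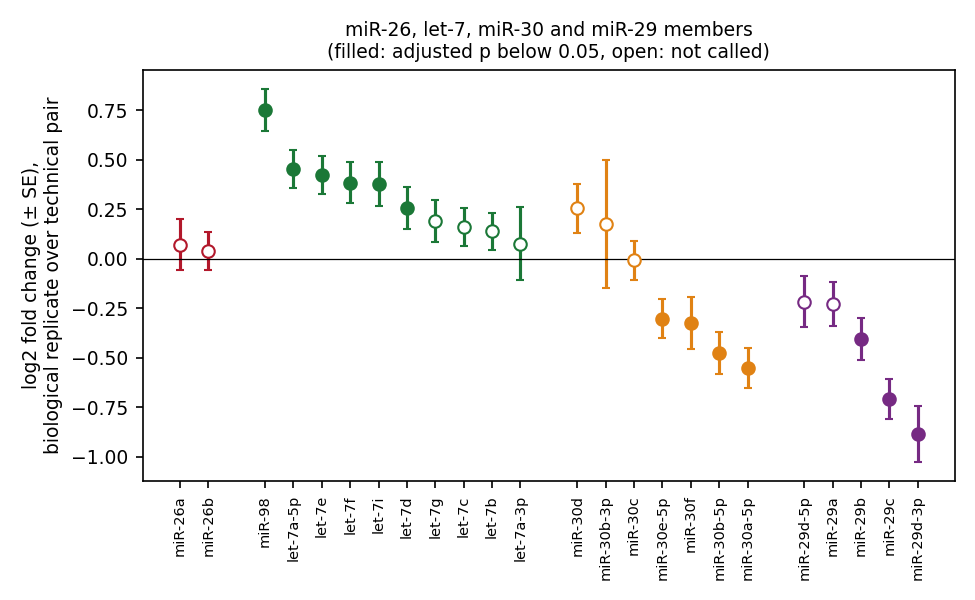
Log2 fold change of the biological replicate over the technical pair (edgeR, TMM) with its standard error for each tested member of the miR-26, let-7, miR-30 and miR-29 lists; filled points have an adjusted p below 0.05. miR-26a and miR-26b are open points near 0, let-7 members lie between 0.077 and 0.75, miR-30 members between -0.55 and 0.25 and miR-29 members between -0.88 and -0.22. The ends at 0.077 and -0.22 are the opposite arms let-7a-3p and miR-29d-5p.

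Levels of marker miRNAs of several cell types were read. RNA of a vesicle preparation cannot by itself establish the labelled cell type. Of all counts, 47.3% belonged to the endocrine markers miR-375 and miR-7 in the biological replicate and 44.1% and 42.8% in technical replicates 1 and 2. miR-375 was higher in the biological replicate (416586 CPM, against 381396 and 358079 CPM in the technical replicates) and miR-7 was not (56414 CPM, against 59224 and 70296 CPM), and neither passed the test (edgeR, adjusted p = 0.23 and 0.95). In the smooth muscle and fibroblast list miR-199a-3p and miR-199c had identical counts and were counted once. The list (6 members so counted, miR-145 with at most 14 counts) held 1.02% of the counts in the biological replicate, against 1.68% and 1.89% in the technical replicates, and 5 of the 6 were lower, beside 20.2% of all miRNAs. The endothelial miR-126 arms held 0.113% in the biological replicate, against 0.182% and 0.189% in the technical replicates. These 2 arms belong to 1 marker. Their log2 fold changes were -0.49 for miR-126-3p and -0.71 for miR-126-5p, against a median of 0.013 over all 367 miRNAs. The erythrocyte list (3 members) held 0.110% in the biological replicate, against 0.0898% and 0.0837% in the technical replicates. That list is nearly all miR-486, which rose, while in the biological replicate miR-451 stood at 16.8 CPM, against 23.6 and 20.2 CPM in the technical pair, and miR-144 at 0.596 CPM, against 0.901 and 0.960 CPM in the pair. The leukocyte list (6 members, miR-223 with at most 7 counts) held 0.0123% in the biological replicate, against 0.0281% and 0.0280% in the technical replicates. That list is mostly miR-146a, which fell to 72.1 CPM from 202 and 204 CPM in technical replicates 1 and 2. Of its 5 members tested, miR-146a and miR-142-5p were lower, 0 were higher and 3 were not called (edgeR). No marker in these lists was at 0 in all libraries. miR-26a and miR-26b are expressed in many cell types, and the part of other cells in their levels was not tested. In such preparations fewer cells or vesicles of a type and less RNA in each cannot be told apart.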

How the data were processed

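Per the labels' protocols, total RNA of the purified vesicles was isolated on columns and made into libraries with a NEBNext kit for small RNA. The deposited table holds raw read counts and, beside them, CPM that the authors took over all rows of the table. The authors also deposited log2 values, for 459 of the rows. The submitters' processing notes name the build UMD3.1 and edgeR. Which aligner, counter and release of miRBase were used is not given in the sources used here.

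For a mature miRNA with several rows, only the row of highest count was taken, and CPM were computed over these (793 miRNAs). edgeR 4.0.16 (TMM, quasi-likelihood fit and test, R 4.3.3) was applied to the counts of the 367 miRNAs that reached 10 counts in at least 1 library (Benjamini-Hochberg adjusted threshold 0.05) and was tested on simulated data. DESeq2 1.42.0, other scalings and filters were alternatives. The F statistic and the fold gave the standard errors. Named miRNAs were all members, the 3 neighbours on each side in mean CPM, the 5 nearest patterns and the members of the lists. MIR2367 was added after its values were seen. A search for other miRNAs with the same seed needs mature sequences and was not run. The members and lists were chosen with earlier results of these data known. Nothing says that the technical libraries come from separate cultures or animals, so p-values measure only the spread between these samples, which may be technical.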

Additional observations from a re-analysis of the deposited data

How the results depend on the processing

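No paired analysis was possible, since there was 1 biological library and the labels pair it with neither technical library. No leave-one-out test was possible, since the 2 libraries left have no residual degree of freedom. Neither miR-26a nor miR-26b was called under any of the 6 alternative fits. The log2 fold changes changed sign with library totals (-0.11 for miR-26a and -0.14 for miR-26b), where the median of all miRNAs was -0.17, against 0.013. Relative to that median both settings gave 0.058 for miR-26a and 0.028 for miR-26b. The sign also changed with only miRNAs of at least 100 CPM (-0.077 and -0.11), where the values relative to the median were negative too (-0.016 and -0.046), and the authors' log2 table gave differences of -0.077 and -0.11. Without one technical replicate the values lay between 0.013 and 0.13 for miR-26a and between -0.0085 and 0.092 for miR-26b. Calls over all miRNAs numbered 139, against 86 in DESeq2 and 70 with only miRNAs of at least 100 CPM, where 167 were tested. With library totals they split into 24 higher and 86 lower, against 65 and 74, and with at least 100 CPM into 26 and 44. Called let-7 members numbered 1 with library totals, against 6, and those of the miR-30, miR-29 and EZH2 lists stayed within 1.5 times. The shares of miR-26a, miR-26b and the family were 2.35%, 0.229% and 2.58%. They became 3.57%, 0.174% and 3.75% with rows summed, 1.79%, 0.174% and 1.96% over the authors' column totals, and 3.88%, 0.377% and 4.26% without miR-375 (chosen after seeing the data). These follow from the changed totals and from counting miR-26a once per hairpin. TMM totals, also chosen later, kept them within 1 SD. With a library left out they lay between 2.29% and 2.44%, 0.223% and 0.240%, and 2.51% and 2.69%. The part of miR-26a in both members became 95.4% with rows summed and lay between 91.0% and 91.2% with a library left out. Among the members, depth limits the statement on miR-26c.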
